A study of Mus musculus with 16 samples.

Results

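Loss of Zbtb17 in hearts that had no pressure load was described by setting 4 hearts of sham-operated mice with a conditional knockout of the gene (zbtb17 cKO) against 4 hearts of sham-operated control mice, 8 of the 16 arrays of the study. All mice were C57BL/6 males, 8 to 10 weeks old at surgery, and each heart was taken 4 weeks later and gave 1 array. The other 8 mice, again 4 of each genotype, underwent transverse aortic constriction (TAC), a banding of the aortic arch that makes the left ventricle pump against high pressure. A sham operation opens the chest without the constriction. The labels give the genotype only as cKO or control: they do not name the Cre driver, the deleted part of the gene or the alleles of the control mice, and they do not say whether the mice shared litters. The limma p-values set a difference against the spread within groups, estimated from all 16 arrays, TAC included. The small number of hearts, 4 against 4, sets the precision. Of 19938 genes with a probe set of their own on the Affymetrix Mouse Gene 1.0 ST array, 13670 passed a filter on low signal and were compared.

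Zbtb17 encodes Miz1, a transcription factor with a BTB/POZ domain and a row of zinc fingers. Miz1 activates genes on its own, represses others when bound to Myc, and is known for direct control of genes of vesicle transport and autophagy and of cell cycle inhibitors. In heart muscle it has been described as a partner of muscle LIM protein, the product of Csrp3, at the Z-disc, the structure that anchors the thin filaments of the sarcomere.

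Values are log2 signals as deposited, so a difference of 1 is a doubling, and ± is the SD over 4 hearts for a level and the standard error of the fit for a difference (cKO minus control). A gene was called at a Benjamini-Hochberg adjusted p under 0.05 in limma, adjusted over all 21333 probe sets kept. The arrays carried the signal of heart muscle: on the 8 sham arrays the troponin gene Tnnt2 lay between 13.42 and 13.62 and the myoglobin gene Mb between 13.58 and 13.73. Some single arrays stood apart. The atrial myosin light chain gene Myl7 reached 8.62 in replicate 3 of the control sham group and 8.46 in replicate 2 of the cKO sham group, against 4.30 to 5.20 on the other 6 sham arrays. Atf3, a stress-induced transcription factor gene, reached 10.18 and 8.45 in replicates 3 and 4 of the control sham group and 9.58 in replicate 1 of the cKO sham group, against 6.13 to 7.26 on the other 5. Control sham replicates 1 and 2 had the narrowest spread of values over all probe sets (SD 2.11 on both, 2.13 to 2.16 on the other sham arrays), and control sham replicate 1 had the lowest mean Spearman correlation with its own group (0.974).

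The targeted gene itself was not lower in cKO hearts. The Zbtb17 probe set (10509998) read 6.19, 6.50, 6.38 and 6.35 in the control hearts and 6.51, 6.62, 6.47 and 6.49 in the cKO hearts. The groups overlapped, with 2 of the 4 cKO hearts above the highest control heart, and a difference of 0.17 ± 0.08 (limma, adjusted p = 0.465; exact permutation test, two-sided, p = 0.0857, where 0.0286 is the smallest that 4 against 4 can give). Whether the probes lie in the removed part is unknown here, and the genotype labels could not be checked by this value.

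Myl2 was the only gene that passed the test after sham, and it fell in cKO hearts. It encodes the regulatory light chain of ventricular myosin, a component of the thick filament. The 4 control hearts read 13.20, 13.22, 13.23 and 13.22, and the 4 cKO hearts 12.89, 12.83, 12.82 and 12.87. The groups did not overlap, and each was narrow: 13.22 ± 0.01 against 12.85 ± 0.03 (SD, n = 4 each). The difference was -0.36 ± 0.06, a signal 1.29-fold lower (limma, adjusted p = 0.0401; exact permutation test, two-sided, p = 0.0286, the smallest possible). After TAC, in 8 other mice, Myl2 fell again, from 13.25, 13.23, 13.22 and 13.27 in control hearts to 12.79, 12.55, 12.83 and 12.87 in cKO hearts, a difference of -0.48 ± 0.06 (limma, adjusted p = 0.00434). The genotype difference itself did not pass a test between surgeries (interaction -0.12 ± 0.08, limma, unadjusted p = 0.151). Myl2 was thus 1 of 13670 genes, or 0.00732%, called after sham, against 5 of 21333 probe sets, or 0.0234%. The other 4 probe sets called are not listed with a gene here. A widely used ventricular Cre line carries Cre in the Myl2 locus itself. The labels do not say whether these mice carried it, so for Myl2 a Cre allele and the loss of Zbtb17 cannot be told apart. The size of the Myl2 difference held between -0.31 and -0.38 under every alternative run, but its call ended under 16 of them. Among these were median centring of the arrays (limma, adjusted p = 0.202) and a fit without trend (adjusted p = 0.197). Leaving out any single sham array other than control sham replicate 4 also ended it (adjusted p from 0.0816 to 0.199).

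Most other genes of ventricular muscle did not share the direction of Myl2. Of 24 measured ventricular cardiomyocyte genes, 21 had a positive difference and 3 a negative one, with a median of 0.10 beside 0.01 over all genes. Of all genes compared, 52.9% had a positive difference. The 3 were Myl2 itself, Pln, which encodes the calcium pump inhibitor phospholamban (-0.01), and the gap junction gene Gja1 (-0.07), both named after their values were seen. Without control sham replicate 1, whose mean over the list was 11.61 against 11.87 to 11.92 in the other controls, 19 were positive and 5 negative (median 0.0667). The essential light chain of the same myosin, Myl3, read 13.22, 13.30, 13.18 and 13.21 in control and 13.29, 13.29, 13.42 and 13.36 in cKO hearts, so that it overlapped and differed by 0.11 ± 0.04 (adjusted p = 0.397). Ttn, which encodes the giant spring protein titin, differed by 0.33 ± 0.13, and Mybpc3, which encodes cardiac myosin-binding protein C, by 0.25 ± 0.10, with adjusted p of 0.396 and 0.401. The gene of the fast atrial and ventricular heavy chain, Myh6, was at 13.21 ± 0.18 and 13.34 ± 0.06. The 2 atrial light chain genes differed between single arrays of both genotypes: Myl4, like Myl7, was high in replicate 3 of the control group (11.18) and replicate 2 of the cKO group (11.09) and lay between 6.76 and 7.59 on the other sham arrays. Without those 2 arrays the Myl2 difference was -0.35 (adjusted p = 0.309).

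**Figure D1:**
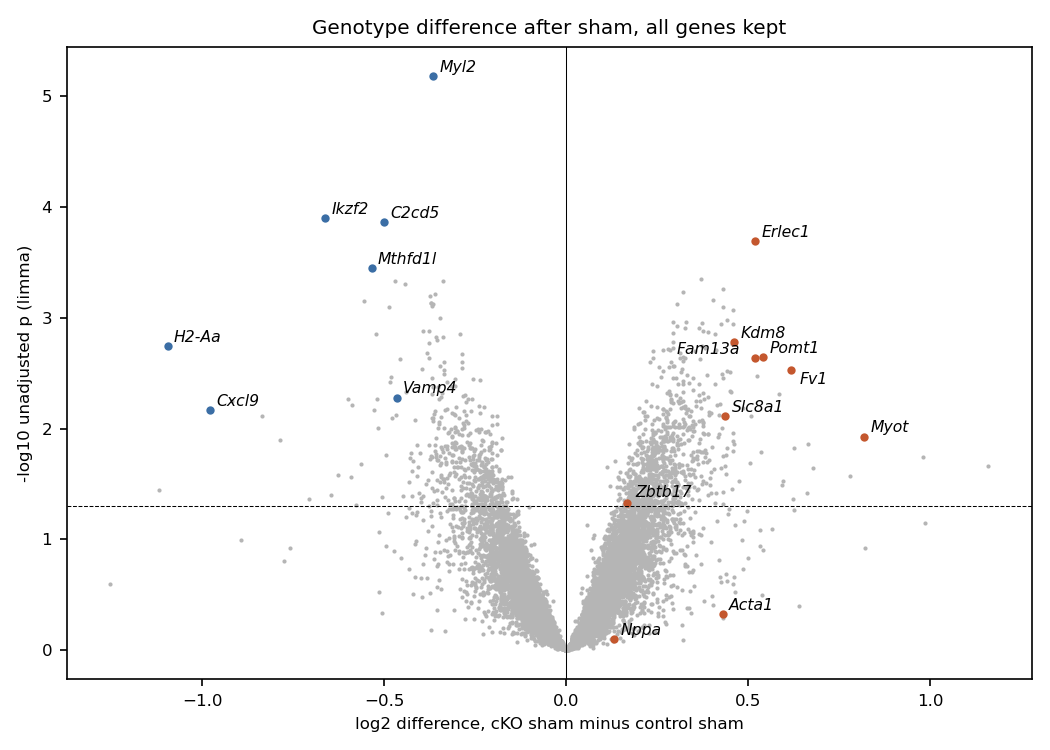
Each point is 1 of 13670 genes after sham; the horizontal axis is the log2 difference (cKO minus control) and the vertical axis the negative log10 of the unadjusted limma p, with a dashed line at 0.05. Named genes are orange where higher and blue where lower in cKO; Myl2 stands highest, at a small difference of -0.36, while H2-Aa (-1.10), Cxcl9 (-0.98) and Myot (0.82) have larger differences and larger p.

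Below the threshold there was a broad set of small differences. At an unadjusted p under 0.05, 830 genes (6.07%) were higher and 500 (3.66%) lower in cKO hearts, 1330 (9.73%) in all. The groups did not overlap in 421 genes (3.08%) that were higher and 277 (2.03%) that were lower. Differences were small: 5% of genes lay below -0.22 and 5% above 0.25. The balance of directions depended on how arrays were scaled. As deposited, 62.4% of genes at p under 0.05 were higher. With each array centred on its median there were 1658 higher and 192 lower, or 89.6% higher. Such centring shifts the difference of every gene by the same amount. The median over all genes was then 0.0688, beside 0.01 as deposited. Without control sham replicate 1 the share was 55.4%, and without control sham replicates 1 and 2 it was 52.7%. No gene other than Myl2 passed the adjusted threshold, so the genes described next were not called and are given by their values.

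Some genes were apart in both sets of mice. In 24 genes (0.176%) every cKO heart was above every control heart after sham and again after TAC, and in 11 genes (0.0805%) every cKO heart was below in both. In 4 genes (0.0293%) the groups were apart in opposite directions. C2cd5 (probe set 10549171) encodes a C2-domain protein of the vesicles that carry the glucose transporter GLUT4 to the cell surface. It read 6.22, 6.57, 6.26 and 6.28 in control sham hearts and 5.71, 5.76, 6.10 and 5.76 in cKO sham hearts. The groups were apart, with cKO replicate 3 nearest to the controls, and differed by -0.50 ± 0.10 (adjusted p = 0.209). After TAC the difference was -0.49 ± 0.10, again with no overlap.

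Vamp4, a SNARE gene for fusion of vesicles at the Golgi and a reported direct target of Miz1, read 8.47, 7.92, 7.71 and 7.79 in control sham hearts and 7.37, 7.43, 7.59 and 7.64 in cKO sham hearts. All cKO values were lower, control replicate 1 stood highest, and the difference was -0.47 ± 0.14 (adjusted p = 0.347). After TAC the control hearts read 8.29, 7.85, 8.10 and 7.90 and the cKO hearts 7.35, 7.49, 7.57 and 7.34, a wider gap of -0.60 ± 0.14. Vps28, a subunit of the ESCRT complex that sorts membrane proteins for the lysosome and another reported target, was lower by 0.18 after sham (9.16 ± 0.04 to 8.98 ± 0.08) and by 0.43 after TAC. Ambra1, a reported target that starts autophagy, was at 6.96 ± 0.06 in control and 6.78 ± 0.06 in cKO sham hearts without overlap, a difference of -0.18 ± 0.08 (adjusted p = 0.422), and the groups overlapped after TAC (-0.08 ± 0.08).

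On the higher side were Fam13a, Tecrl, an endoplasmic reticulum gene of heart muscle whose mutation is known to cause arrhythmia, and Kdm8, which encodes a JmjC-domain hydroxylase. Fam13a read 6.84, 7.27, 7.19 and 7.34 in control and 8.08, 7.68, 7.60 and 7.36 in cKO sham hearts, apart by a narrow margin, and differed by 0.52 ± 0.14 after sham and 0.48 ± 0.14 after TAC. Tecrl read 10.37, 10.10, 10.53 and 10.53 in control and 10.73, 10.54, 11.04 and 10.91 in cKO sham hearts. Its groups nearly touched after sham (0.42 ± 0.13) and differed by 0.57 ± 0.13 after TAC. Kdm8 read 5.27, 5.36, 5.16 and 5.28 in control and 5.60, 6.07, 5.86 and 5.39 in cKO sham hearts, with replicate 4 just above the controls, and differed by 0.46 ± 0.12 after sham and 0.36 ± 0.12 after TAC. Also higher in both were Tbx18, an epicardial transcription factor gene (0.36 and 0.27), Ocrl, a phosphoinositide phosphatase gene of endosomes (0.32 and 0.23), Idi1 of the mevalonate pathway (0.28 and 0.26) and Vps35, the core subunit of the retromer (0.24 and 0.14). Also lower in both were Runx3, a transcription factor gene of lymphocytes (-0.35 and -0.31), Cplx1, a SNARE-binding complexin gene (-0.28 and -0.24), and Gm5779 (-0.37 and -0.37).

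**Figure D2:**
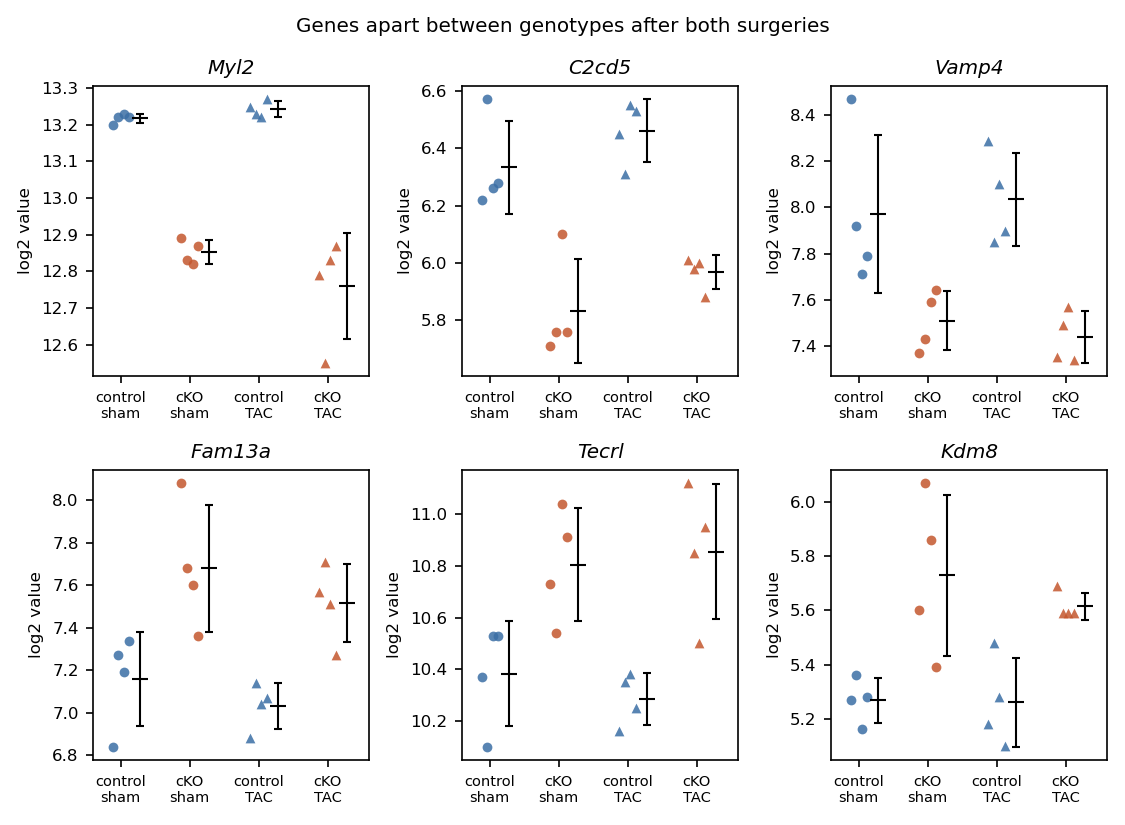
Log2 value of each heart for 6 genes apart between genotypes after both surgeries; blue is control, orange cKO, circles sham and triangles TAC, and the black bar beside each group is the mean ± SD of 4 hearts. In each panel every cKO heart lies on 1 side of every control heart of the same surgery; the vertical axes differ and do not start at 0, and Myl2 spans 12.55 to 13.27.

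Promoter sequence was read for the genes apart in both surgeries because Miz1 and Myc bind DNA near gene starts. The windows are RefSeq promoters of GRCm38.p6, and 4 words were searched on both strands. The word ATCGAT, the related word ATCGGT and the word GTAATC were searched for Miz1, and no full binding sequence of Miz1 was searched. The fourth was CACGTG, the E-box of Myc and its partners. ATCGAT lies just inside the transcript of C2cd5, at positions 3 to 8 counted from the start, and of Kdm8, at positions 9 to 14, while CACGTG lies at positions -163 to -158 of the first Vamp4 promoter. The stretches below are 5′ to 3′ on the gene's own strand, with the word found in capitals, for C2cd5 at chr6:143100133-143100252 (minus strand), Kdm8 at chr7:125444520-125444639 (plus strand) and Vamp4 at chr1:162570315-162570534 (plus strand).
C2cd5: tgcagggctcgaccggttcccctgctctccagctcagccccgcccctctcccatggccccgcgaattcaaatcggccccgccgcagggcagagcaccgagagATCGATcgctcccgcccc
Kdm8: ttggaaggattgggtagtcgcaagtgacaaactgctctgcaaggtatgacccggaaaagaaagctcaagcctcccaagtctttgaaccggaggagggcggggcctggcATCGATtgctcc
Vamp4: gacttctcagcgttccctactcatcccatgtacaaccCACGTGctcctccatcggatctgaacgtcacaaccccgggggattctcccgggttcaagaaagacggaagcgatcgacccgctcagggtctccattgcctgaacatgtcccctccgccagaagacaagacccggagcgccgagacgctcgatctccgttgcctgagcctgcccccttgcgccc

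These matches are descriptions of letters, not of binding. ATCGAT is found in 304 of 32851 promoters of the table (0.925%) and CACGTG in 2349 (7.15%), ATCGGT in 766 (2.33%) and GTAATC in 1547 (4.71%). The 2 genes shown with ATCGAT near the start differed in opposite directions: C2cd5 was lower and Kdm8 higher in cKO hearts. Among the genes without overlap after sham that had a promoter in the table, ATCGAT was in 2 of 345 higher genes (0.58%) and 4 of 207 lower genes (1.93%), beside 0.966% of all genes compared. CACGTG was in 10.1% of the higher and 9.18% of the lower genes, beside 11.3%. Of the 17 measured genes reported elsewhere as Miz1 targets, 12 had a promoter in the table. None of these held ATCGAT, Ambra1 held GTAATC, and Vamp4, Rab5a and Mxd4 held CACGTG. Among the other genes apart in both surgeries, Tecrl held both ATCGGT and GTAATC, and Gyg and Sphk1 held CACGTG. Neither of the Myl2 promoters held any of the 4 words.

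The 17 measured reported targets were divided after sham. Their median difference was 0.00 (8 positive, 9 negative). With arrays centred on their medians it was 0.06, beside 0.07 over all genes. Vamp4, Vps28 and Ambra1 were the 3 with an unadjusted p under 0.05, all of them lower and without overlap. Of all genes, 3.66% were lower at that p and 2.03% were lower without overlap. After TAC 13 of the 17 were negative (median -0.05). The list was compiled with those 3 known from earlier results. Among 17 genes of Zbtb17 and its partners the median was 0.02. Nsfl1c, a cofactor of the p97 ATPase, was at 8.05 ± 0.20 in control and 8.33 ± 0.09 in cKO hearts, with overlap. A second probe set of Nsfl1c differed by less (0.095 ± 0.07, with overlap). Huwe1, the ubiquitin ligase that degrades Miz1, differed by 0.21. Csrp3, the gene of muscle LIM protein, was at 11.71 ± 0.14 in control and 11.71 ± 0.08 in cKO hearts.

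Genes of vesicle traffic leaned upward around the lower Vamp4 and C2cd5. Of 39 measured members 31 were positive and 8 negative, with a median of 0.09. At an unadjusted p under 0.05, 8 were higher and 3 lower, beside 6.07% and 3.66% of all genes. Vamp7, a SNARE gene of late endosomes and lysosomes, was at 7.71 ± 0.19 and 8.01 ± 0.09, and Vps35 at 8.70 ± 0.13 and 8.93 ± 0.06. This majority was smaller without 2 control arrays: without control sham replicates 1 and 2, the arrays of narrowest spread, 24 members were positive and 15 negative (median 0.025), and without replicate 1 alone 26 and 13 (median 0.0542). With quantile normalization the median was 0.0411. Of 36 autophagy and lysosome genes 26 were positive, but only 2 were higher and 2 lower at an unadjusted p under 0.05.

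Z-disc genes had the highest median of the 37 lists as deposited. Of 25 measured genes of the Z-disc and costamere, 19 were positive and 6 negative, with a median of 0.16. Myot encodes myotilin, a cross-linker of actin and alpha-actinin at the Z-disc. It read 9.42, 9.32, 9.57 and 9.22 in control and 10.11, 10.26, 10.18 and 10.26 in cKO sham hearts. The groups were far apart relative to their spread, with a difference of 0.82 ± 0.29, a signal 1.77-fold higher. It was not called in the fit of 16 arrays (adjusted p = 0.382), in which the TAC groups were wide (SD 0.50 in control and 0.75 in cKO), and was called with only the 8 sham arrays in the fit (adjusted p = 0.0455). Ldb3, which encodes the Z-disc protein cypher, was at 10.76 ± 0.21 and 11.00 ± 0.07 without overlap. Pdlim5, which encodes the related protein ENH, differed by 0.28 ± 0.11, and Sgcd, the gene of delta-sarcoglycan at the costamere, by 0.36 ± 0.14. In each of Ldb3, Pdlim5 and Sgcd the lowest control heart was replicate 1. Without control sham replicates 1 and 2 the list had 13 positive and 12 negative members (median 0.0425), and without replicate 1 alone 15 and 10 (median 0.0917). The majority thus shrank without those arrays, to 13 of 25 without both.

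Of 18 measured calcium handling genes 13 were positive and 5 negative (median 0.08). At an unadjusted p under 0.05, 1 was higher and 0 lower, beside 6.07% and 3.66% of all genes. The 1 was Slc8a1, which encodes the sodium-calcium exchanger of the cardiomyocyte membrane. Slc8a1 read 9.49, 9.61, 9.49 and 9.54 in control and 9.83, 9.96, 10.00 and 10.09 in cKO sham hearts. Each group was narrow and they did not overlap, with a difference of 0.44 ± 0.14 (adjusted p = 0.369). A second probe set of Slc8a1 differed by 0.67 ± 0.16, also without overlap. The fetal and stress markers of a failing ventricle gave no such separation. Nppa, which encodes atrial natriuretic peptide, read 11.17, 11.77, 11.99 and 12.11 in control and 11.79, 11.89, 12.26 and 11.63 in cKO hearts (0.13 ± 0.49). Nppb, which encodes brain natriuretic peptide, differed by -0.03 ± 0.41, the slow myosin gene Myh7 by 0.54 ± 0.52 and the skeletal actin gene Acta1 by 0.43 ± 0.58, all with overlap. Among 33 extracellular matrix genes the median was 0.00, with 16 positive and 16 negative. None had an unadjusted p under 0.05, where 9.73% of all genes did. The sign of that median turned with single arrays, from -0.1025 without cKO sham replicate 2 to 0.1292 without control sham replicate 3, and 29 of 33 were negative without control sham replicates 1 and 2 (median -0.2025).

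**Figure D3:**
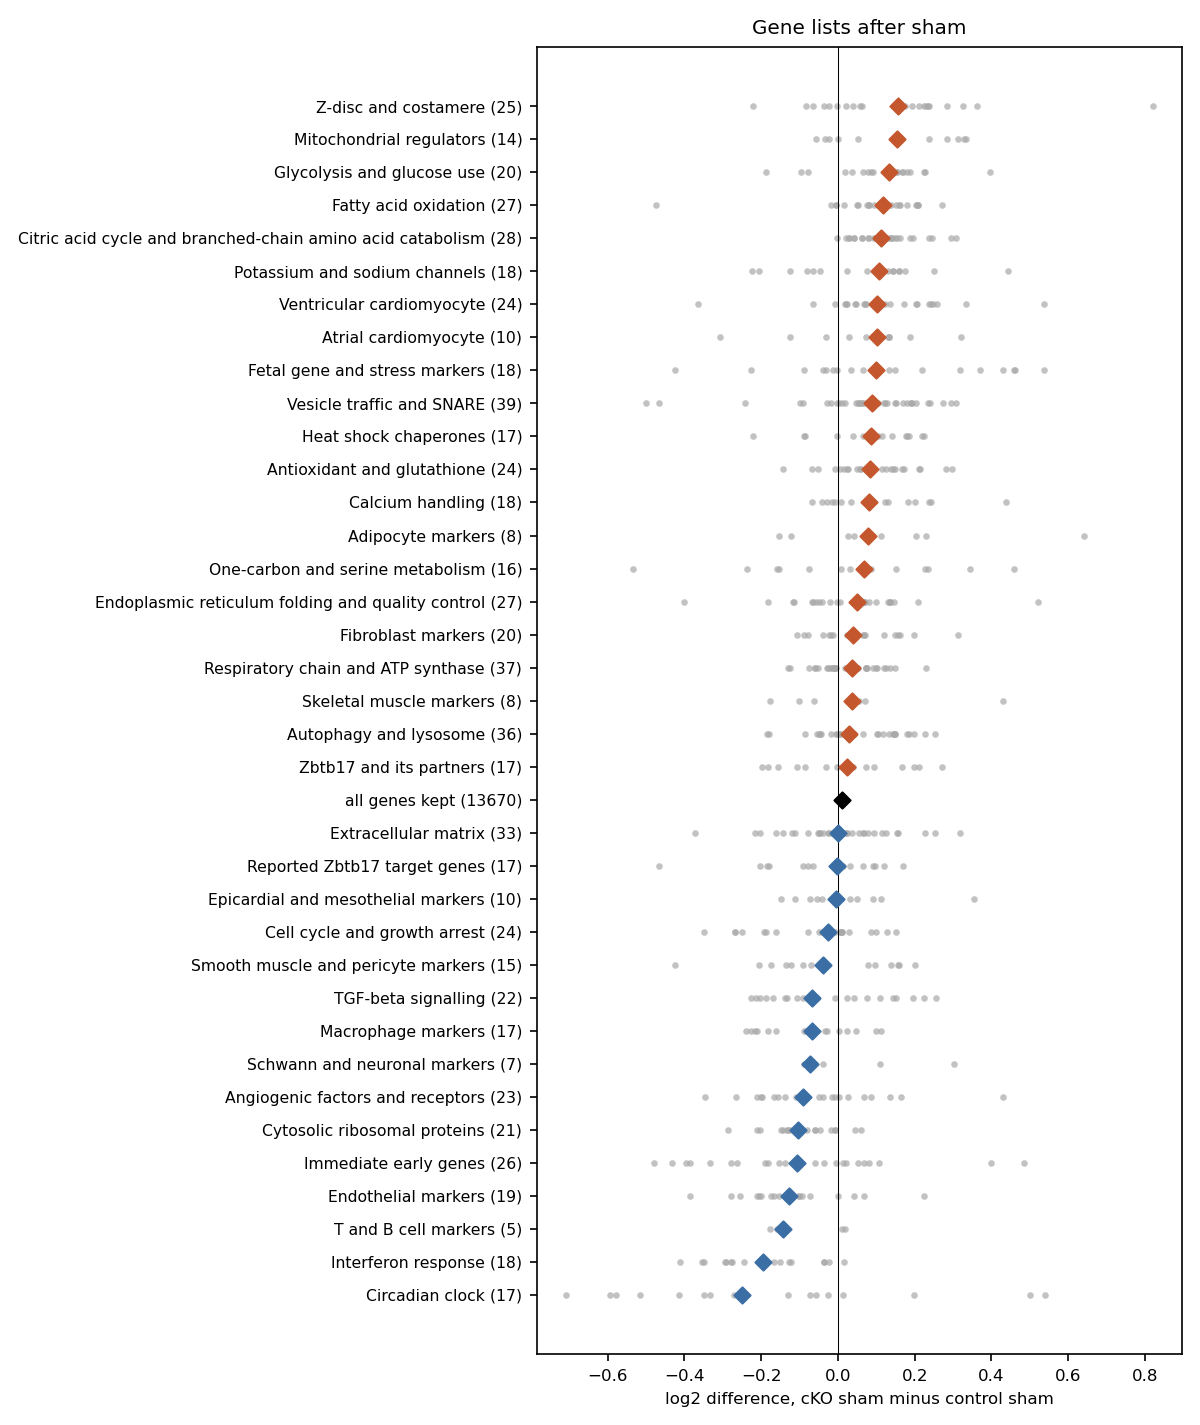
Each row is a gene list with at least 5 measured members (number in brackets); grey points are the log2 differences of the members after sham (cKO minus control), diamonds their medians, orange above 0 and blue at or below, black for all genes. Medians run from -0.25 for the circadian clock to 0.16 for the Z-disc, and the members of most lists lie on both sides of 0.

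Most genes of energy metabolism outside the respiratory chain had small positive differences in cKO sham hearts, and the size of their medians depended on single arrays. Of 37 respiratory chain and ATP synthase genes, 22 were positive and 15 negative (median 0.04), or 59.5% positive beside 52.9% of all genes. In the TAC mice 27 of these 37 were negative (median -0.07). Of 28 genes of the citric acid cycle and branched-chain amino acid catabolism, 27 were positive (median 0.11). At an unadjusted p under 0.05, 3 were higher and 0 lower, beside 6.07% and 3.66% of all genes. Without control sham replicate 1 the median was 0.065, with 23 positive. Of 27 fatty acid oxidation genes 23 were positive (median 0.12), and in the TAC mice 24 of the 27 were negative (median -0.17); whether that list differs between surgeries was not tested. After sham the median was 0.0642 without control sham replicate 3 and 0.07 without cKO sham replicate 4. Of 20 genes of glycolysis and glucose use 17 were positive (median 0.13, or 0.065 without control sham replicate 1). Gys1, muscle glycogen synthase, read 8.26, 8.84, 8.58 and 8.93 in control and 9.03, 9.05, 9.12 and 9.00 in cKO hearts, where the wide control group and the narrow cKO group did not overlap. Hk1, a hexokinase gene, went the other way (-0.19 ± 0.09), and its second probe set did not (0.11 ± 0.13). Among 14 mitochondrial regulators 10 were positive and 3 negative (median 0.15). Their mean was 7.49 in control sham replicate 1 and 7.79 to 7.85 in the other controls, and without that array 9 were positive and 4 negative (median 0.0525). The higher ones included Tfb2m, a mitochondrial transcription factor gene (0.28 ± 0.10), and Gabpa, an activator of respiratory chain genes (0.24 ± 0.10).

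In one-carbon metabolism 11 of 16 genes were positive and 5 negative. At an unadjusted p under 0.05, 3 were higher and 1 lower, beside 6.07% and 3.66% of all genes. Mthfd1l, the mitochondrial formate-producing enzyme, read 5.13, 5.50, 5.43 and 5.01 in control and 4.66, 4.72, 4.84 and 4.71 in cKO sham hearts. The groups did not overlap and differed by -0.53 ± 0.12 (adjusted p = 0.266). Its cytosolic relative Mthfd1 was higher by 0.34 ± 0.12 without overlap, and Shmt2, which feeds the mitochondrial pathway from serine, was higher by 0.46 ± 0.16 with overlap. After TAC Mthfd1l differed by 0.01 ± 0.12 (interaction 0.55 ± 0.17, limma, unadjusted p = 0.00493, not passing adjustment at an adjusted p of 1).

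The largest negative difference among genes without overlap was in a gene of antigen presentation. H2-Aa, which encodes the alpha chain of an MHC class II molecule that presents peptides to T cells, read 7.58, 7.23, 6.88 and 7.80 in control and 6.42, 6.26, 5.96 and 6.47 in cKO sham hearts. The groups did not overlap, although both were wide, and the signal was 2.14-fold lower (-1.10 ± 0.29, adjusted p = 0.277). Cxcl9, a chemokine gene induced by interferon gamma, read 7.55, 6.78, 7.46 and 7.71 in control and 6.61, 6.41, 6.37 and 6.19 in cKO hearts. It too was apart (-0.98 ± 0.31, adjusted p = 0.362). After TAC the differences were -0.92 ± 0.29 and -0.84 ± 0.31, with overlap. In bulk tissue, fewer cells of a type and less RNA per cell cannot be told apart.

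The partners of H2-Aa were looked at after its value was seen. H2-Ab1, the beta chain, was at 7.59 ± 0.56 and 6.67 ± 0.18, and Cd74, the invariant chain, at 7.74 ± 0.48 and 6.90 ± 0.25. In both, the groups overlapped only through control sham replicate 3, at 6.89 in H2-Ab1 and 7.07 in Cd74. H2-Eb1 differed by -0.63 ± 0.26. Ciita, the master activator of the class II genes, was close to the filter and differed by -0.07 ± 0.08. Ikzf2, which encodes the lymphoid transcription factor Helios, read 6.02, 5.91, 6.04 and 5.61 in control and 5.15, 5.08, 5.38 and 5.32 in cKO hearts, and was apart at -0.66 ± 0.13 (adjusted p = 0.209). Gbp5, an interferon-induced GTPase gene, was apart at -0.48 ± 0.14.

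**Figure D4:**
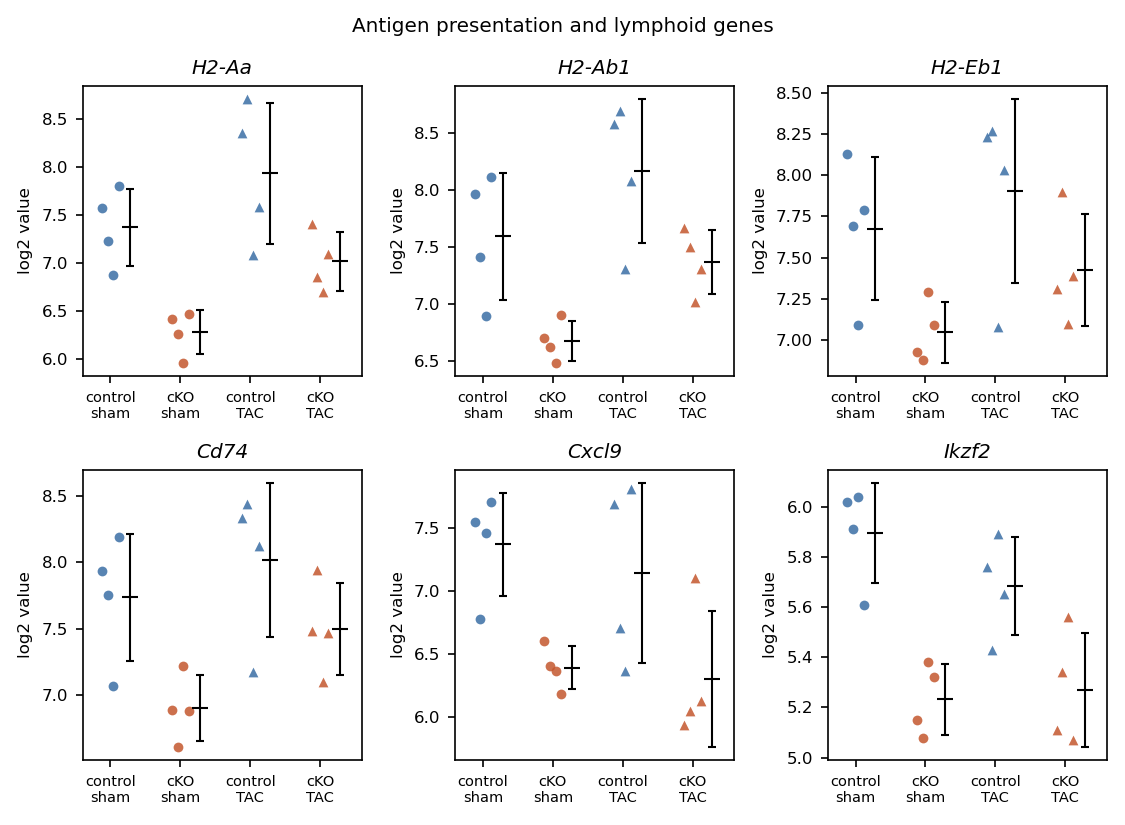
Log2 value of each heart for 4 class II antigen presentation genes, Cxcl9 and Ikzf2; blue is control, orange cKO, circles sham and triangles TAC, black bars mean ± SD of 4 hearts. After sham all 4 cKO hearts lie below all 4 controls in H2-Aa, Cxcl9 and Ikzf2, and 1 low control heart overlaps them in H2-Ab1, H2-Eb1 and Cd74.

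Markers of immune cells were measured beside these genes, and their part in the result was not tested. Of 17 macrophage markers 12 were negative (median -0.07), and the mean of the list lay between 6.44 and 7.03 in control and between 6.54 and 6.85 in cKO sham hearts. The direction of that median turned to 0.04 without control sham replicate 1. Only 5 of 17 T and B cell markers passed the filter, and of these 2 were positive and 3 negative (median -0.14). The 2 positive ones, the T cell genes Cd3e (5.03 ± 0.12 and 5.04 ± 0.10) and Cd4 (4.78 ± 0.14 and 4.79 ± 0.11), were near equal. The B cell factor Pax5 was at 5.02 ± 0.04 and 4.84 ± 0.05, apart by 0.18. The mean of these 5 lay between 5.13 and 5.26 in control and between 5.06 and 5.16 in cKO hearts. Of 18 interferon response genes 17 were negative (median -0.19). Of these 1, Stat2, had an unadjusted p under 0.05 (-0.35 ± 0.14), where 3.66% of all genes were lower at that p. Without control sham replicates 1 and 2, 18 of 18 were negative (median -0.30). With arrays centred on their medians 14 of 18 were (median -0.135), where the median over all genes was 0.0688. Without control sham replicate 3, 15 of 18 were (median -0.1583).

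Other lists leaned lower. Endothelial markers were negative in 15 of 19 members, positive in 3 and at 0 in the other (median -0.13), with Eng, which encodes endoglin, at -0.26 ± 0.11, and again in 18 of 19 after TAC (median -0.18). Cytosolic ribosomal protein genes were negative in 19 of 21 (median -0.11), with Rplp0 at -0.21 ± 0.07 and -0.33 ± 0.07 after TAC. The endothelial median was -0.075 without control sham replicate 1, -0.2033 without control sham replicate 2 and -0.0688 with arrays centred on their medians. The ribosomal median was -0.015 without control sham replicate 1, -0.065 without cKO sham replicate 1 and -0.05 with that centring. The median over all genes was 0.0688 with that centring and 0.01 as deposited. Immediate early genes were negative in 18 of 26 (median -0.11), and leaving out single arrays put the median between -0.19 (without cKO sham replicate 1) and 0.0625 (without control sham replicate 3). The cell cycle gene Ccnd1, which encodes cyclin D1, was at 8.98 ± 0.10 in control and 8.63 ± 0.06 in cKO hearts, apart by 0.35 (adjusted p = 0.418).

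Most clock genes had negative differences after sham and positive ones after TAC. Of 17 measured clock genes 13 were negative after sham (median -0.25) and 14 positive after TAC (median 0.29). The other 4 were positive after sham, up to 0.54. Without overlap after sham 1 clock gene was higher and 1 lower, beside 3.08% and 2.03% of all genes. The sham median was -0.1408 without cKO sham replicate 4, -0.15 without cKO sham replicate 3 and -0.1625 without control sham replicate 2. At an unadjusted p under 0.05, 4 of the 17 were lower, where 3.66% of all genes were. Without cKO sham replicate 4 these 4 became 0. Per2, a repressor of the clock, read 6.88, 6.88, 7.17 and 6.92 in control and 6.80, 6.51, 6.23 and 5.94 in cKO sham hearts, apart by -0.59 ± 0.24. After TAC it differed by 0.66 ± 0.24, with overlap. The interaction for Per2 was 1.25 ± 0.34 (limma, unadjusted p = 0.00228, adjusted p = 1). Dbp, a clock output gene, was at 8.50 ± 0.36 in control and 7.79 ± 0.55 in cKO sham hearts. The labels give no time of day at which hearts were taken, so time of day and genotype cannot be told apart in these genes.

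The largest differences among genes past a stricter cut included members of the lists above and genes outside them. Among genes with an unadjusted p under 0.01 and no overlap, 118 (0.863%) were higher and 74 (0.541%) lower. The largest positive differences were those of Fv1, a retroviral restriction gene (0.62 ± 0.18), Pomt1, which adds mannose to dystroglycan (0.54 ± 0.15), Ift81 of intraflagellar transport (0.53 ± 0.15), Fam13a, and Erlec1, a lectin gene of endoplasmic reticulum quality control (0.52 ± 0.11). Erlec1 read 7.83, 8.09, 7.97 and 8.32 in control and 8.53, 8.51, 8.70 and 8.55 in cKO sham hearts, and was called without control sham replicate 4 (adjusted p = 0.0415), as was Ikzf2. Then came Mboat2 (0.51), Phka1, a subunit of muscle phosphorylase kinase (0.49 ± 0.16), Kdm8, Cbwd1, Nup43, Lrrc1, Abca5, Arhgap24, N4bp2 and Slc8a1 (0.46 to 0.44). After H2-Aa, Cxcl9 and Ikzf2 the largest negative differences were those of the Mir505 locus (-0.60), Olfr767 (-0.59), Shank2, a scaffold gene (-0.55 ± 0.13), Mthfd1l, Iqca (-0.52), Car8 (-0.52), C2cd5, Vwa3b (-0.49), Gbp5, Gm5592 (-0.48), Gm4894 (-0.47) and Vamp4. Second probe sets of Iqca (0.11) and Vwa3b (0.04) did not share the direction, and that of Shank2 did (-0.24).

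Position beside the targeted gene was also looked at, in the order of genes in RefSeq GRCm38.p6. Of the 200 measured genes nearest to Zbtb17, 4 (2%) had an unadjusted p under 0.01 and no overlap, namely Runx3, Pla2g2c, Fv1 and Dffb, beside 1.4% of all genes. Of the 200 nearest to Myl2, 3 (1.5%) did, Naa25, Ift81 and Dhx37. At an unadjusted p under 0.05 alone the shares were 8.5% beside Zbtb17 and 13.5% beside Myl2 (27 of 200), against 9.73% of all genes.

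The sham differences and the TAC differences come from separate mice and can be set side by side. Of all genes, 62.6% had the same direction after both surgeries. Among the genes without overlap after sham, 335 of 421 higher genes (79.6%) and 214 of 277 lower genes (77.3%) had the same direction after TAC. The higher genes had a median of 0.24 after sham and 0.09 after TAC, and the lower genes -0.23 and -0.06, with no test and after a choice on the sham values. Across 13670 genes the 2 sets of differences had a Pearson correlation of 0.36, a description in which all genes share the 16 arrays and their scaling. After TAC the groups did not overlap in 271 genes (1.98%) that were higher and 208 (1.52%) that were lower. In the limma test of the difference between surgeries 0 genes passed adjustment (0%), and 410 (3%) had an unadjusted p under 0.05.

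**Figure D5:**
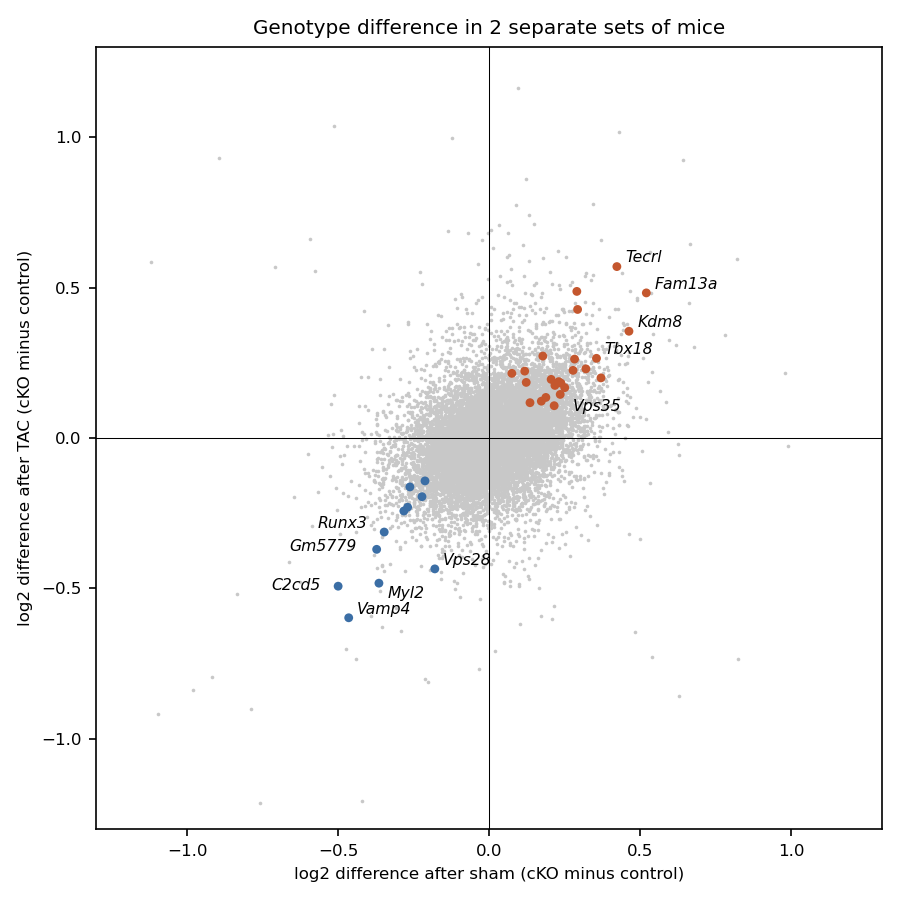
Each point is 1 gene; the axes are the log2 genotype difference (cKO minus control) after sham and after TAC, in separate mice, and 4 genes lie outside the axes. Coloured points are the 24 genes higher (orange) and 11 lower (blue) in cKO without overlap after both surgeries; Vamp4, C2cd5 and Myl2 lie farthest to the lower left, Tecrl, Fam13a and Kdm8 to the upper right.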

How the data were processed

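The authors deposited 1 table of log2 values for 35556 probe sets, rounded to 2 decimals. The log2 scale was read from the values. MAS5 is named per the submitters' processing notes, without a version, and how arrays were scaled to each other is not given in the sources used. Groups and replicate numbers came from the sample titles. Gene symbols came from the platform annotation: 21789 probe sets have 1 symbol, 1621 several and 12146 none, and only the first kind was named, with the probe set of highest mean for each gene. Probe sets with a mean above the 40th percentile (4.37) were kept. limma 3.58.1 in R 4.3.3 fitted 4 group means to 16 arrays (12 residual degrees of freedom) with a mean-variance trend, two-sided, and was tested on simulated data. Members, lists and alternatives were chosen with earlier results of these data known. Named were key genes, genes called, the 15 largest differences in each direction at p under 0.01 without overlap, up to 4 genes of smallest p in each list, and genes apart in both surgeries or of smallest interaction p. H2-Ab1, H2-Eb1, Cd74, Ciita, Cd3e, Cd4, Myl7, Myl4, Myh6 and Atf3 were added after their values were seen. Any 2 arrays differed in at least 97.4% of probe sets. Promoters came from RefSeq (10865 genes matched) and gene order from its table (13630 placed); the genes in small counts near Zbtb17 and Myl2 were named after their values were seen.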

Additional observations from a re-analysis of the deposited data

Results flagged for a closer look

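In 14 named genes a single heart stood away from the other 3 of its group by more than Dixon's critical value allows. Since 186 groups were looked at and chance gives about 1 in 20, no pattern is read from them. In cKO sham hearts these were Nppb in replicate 1 (11.85, others 11.14 to 11.24), Ambra1 in replicate 1 (6.87, others 6.74 to 6.76), C2cd5 in replicate 3 (6.10, others 5.71 to 5.76), Ocrl in replicate 4 (6.90, others 6.96 to 6.97) and Lrrc71 in replicate 2 (4.79, others 4.65 to 4.67). In control sham replicate 1 they were Ldb3 (10.45, others 10.82 to 10.89), Tfb2m (8.68, others 8.97 to 9.00), Rps14 (10.60, others 10.20 to 10.26) and Tbx18 (4.95, others 5.27 to 5.31). In control sham replicate 2 they were Gbp3 (6.07, others 6.78 to 6.89), Dbp (9.03, others 8.26 to 8.37) and Cplx1 (5.16, others 4.72 to 4.79), and in control sham replicate 3 N4bp2 (5.63, others 5.96 to 5.98) and Per2 (7.17, others 6.88 to 6.92).

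In 4 genes the genotypes were apart after both surgeries but in opposite directions. Cope, a subunit of the COPI vesicle coat, was 0.15 higher in cKO hearts after sham and 0.22 lower after TAC (-0.22), Wapl, a cohesin release factor gene, was at 0.18 and -0.09, Mmab of vitamin B12 metabolism at 0.24 and -0.19, and Rhof at -0.20 and 0.17. The difference between surgeries did not pass adjustment in any of the 4 (limma, adjusted p = 1 each).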

How the results depend on the processing

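The count of 1 gene called after sham was 0 with median centring, without trend, with the filter raised to the 60th percentile, with 1 probe set per gene tested or probe sets averaged by gene, without the 2 sham arrays of high Myl7, without the 3 of high Atf3, and without control sham replicates 1 and 2 (added after seeing the data). It was 2 with only the sham arrays in the fit. Leaving out 1 sham array gave 0 to 4 genes, with 4 without control sham replicate 4 and 0 without any other. The count of 1 gene after TAC was 2 with quantile normalization or array weights, 0 without trend or with only the TAC arrays, and 1 to 2 when 1 array was left out, with 2 without cKO TAC replicate 1. The interaction count was 0 under every setting run. Small differences changed sign. Csrp3 was at 0.0108 with quantile normalization, 0.0563 with median centring, 0.0767 without the high Myl7 arrays and 0.0517 without the high Atf3 arrays. Nppb was at 0.0287, 0.2167 and 0.2467 under the last 3, and Nppa at -0.1575 without control sham replicates 1 and 2. Leaving out 1 sham array put Nppb between -0.3017 and 0.1517, Csrp3 between -0.06 and 0.05 and Nppa between -0.0642 (without control sham replicate 1) and 0.2492.

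The replicate number as a block gave 0 genes after sham (Myl2 adjusted p = 0.1405). No pairing by number was seen in the sham values: deviations of same-numbered sham arrays correlated at -0.15, -0.10, -0.19 and -0.09, and 0 of 8 sham arrays matched best with its own number. Those of same-numbered TAC arrays correlated at -0.05, 0.12, 0.19 and -0.20. The labels do not say whether same-numbered hearts shared a litter, and these correlations cannot decide it. Counted over each named gene under each alternative, those above included, 1903 values kept direction and side of the threshold and 18 changed sign. In 16 the Myl2 call was lost, and in 3 a call was gained (Myot, Ikzf2 and Erlec1). Only Myl2 was called in the main fit, so for the other genes staying on the same side says little.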
